A study of Homo sapiens with 24 samples.

Results

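The 38 integrin and laminin genes of 28277 genes counted were followed through 8 conditions of the PEO1 and PEO4 ovarian carcinoma lines. They were matched by symbol, as every integrin alpha subunit, integrin beta subunit and laminin chain listed in both count tables. This gave 18 alpha subunits, 8 beta subunits and 12 laminin chains. No measured value entered the match, but these families were chosen with earlier results of these data known. PEO1 and PEO4 are established cell lines, labelled human ovarian adenocarcinoma, PEO1 being the drug-sensitive and PEO4 the drug-resistant line of a matched pair.

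The data were polyadenylated-RNA sequencing counts from 24 libraries, 3 per condition, in 2 tables. The first table held untreated PEO1 A (genotype WT in the labels, the BRCA2-deficient parental line) and untreated PEO4 A (genotype WT). The second held PEO1 B (genotype BRCA2+, PEO1 cells in which BRCA2 function returned by spontaneous reversion) and PEO4 B (genotype WT). The paper reports that a BRCA2 reversion in PEO4 restores the reading frame, although PEO4 and PEO1 A share the label WT. BRCA2 status thus differs between the lines within pair A but not within pair B. Within pair A line and BRCA2 status cannot be told apart. Each B line was sampled untreated and after 2 h or 6 h in 5 µM pyridostatin (PDS), a small molecule that binds G-quadruplexes. The 2 tables were scaled and tested separately, so no test crosses them. The paper's methods name sodium pyruvate in the medium of BRCA2-deficient PEO1 and its PEO4, but not for the B lines. Between the pairs, BRCA2 status of PEO1, medium and table therefore cannot be told apart. The labels do not say whether the 3 replicates were separate cultures, so p-values measure the spread between these samples only. In bulk RNA a lower level can mean fewer expressing cells or less RNA per cell, and these cannot be told apart here.

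Integrins are alpha-beta heterodimers at the cell surface that bind matrix or cell ligands outside and link to the cytoskeleton inside. Laminins are trimers of an alpha, a beta and a gamma chain that build basement membranes, the sheets on which epithelial cells sit. In epithelia the integrin of ITGA6 and ITGB4 anchors cells to laminin containing LAMA3 and LAMB3 in hemidesmosomes, while ITGA3 and ITGA6 joined to ITGB1 also read the LAMA5-containing laminins.

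Total counts were 32528913 to 63882077 per library in the first table. In the second they were 18699929 to 22375644 in the 6 untreated and 33260167 to 43713947 in the 12 treated libraries. Ribosomal RNA genes took 0.217 to 0.474% of counts in the untreated B libraries and 0.0164 to 0.0369% in the treated ones, so depth, ribosomal share and treatment cannot be told apart. All 9 epithelial ovarian markers examined were present in every library, the lowest value being 44.3 CPM (read counts scaled to a common library total), but some moved with line or treatment. MUC16 and MSLN fell in PEO4 by 3.40 ± 0.49 and 2.29 ± 0.13 on the log2 scale after 6 h of PDS, and MUC16 fell by 2.59 ± 0.47 in PEO1. PAX8 was higher in PEO4 A by 1.56 ± 0.08 and MSLN in untreated PEO4 B by 1.34 ± 0.13, and the part of these markers in the results was not tested. Of 5 leukocyte markers CD3E was at 0 in every library and PTPRC reached at most 0.0418 CPM, and of 2 platelet markers GP9 was at 0 in every library. BRCA2 RNA was read at 4.67 to 16.1 CPM over all libraries, and RNA level alone does not check the genotype labels.

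All levels are CPM scaled by the trimmed mean of M-values (TMM) within a table, as mean ± SD of 3 libraries. Differences are log2 fold changes ± SE from edgeR's quasi-likelihood test, with p adjusted by Benjamini-Hochberg over 15882 genes in the first and 17020 in the second table. A gene is said to be higher or lower, or to rise or fall, where the edgeR adjusted p was below 0.05 and the change exceeded 2-fold (a log2 change of 1). Levels of different genes are compared only as CPM per kilobase (kb) of the canonical transcript. The counting strand is not given, so reads of overlapping genes could be mixed. Named members overlapped by other genes include ITGA1 (PELO), ITGA4 (CERKL), ITGA7 (BLOC1S1 and TMT1B), ITGAE (HASPIN and P2RX5), ITGB4 (GALK1) and ITGB7 (ZNF740), and antisense or noncoding genes overlap further members.

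The untreated PEO4 libraries were more spread than the rest in these genes. Over the 18 members at 10 CPM or more in every condition, the median coefficient of variation between the 3 libraries was 16.8% in PEO4 A and 17.3% in untreated PEO4 B, against 2.05 to 7.24% in the other conditions. Over all tested genes, scatter beyond counting noise (chi-square per degree of freedom) reached 52.5 in PEO4 A and 25 in untreated PEO4 B. It also reached 21.8 in PEO4 B at 2 h and 19.9 in PEO1 A. Scatter between libraries was thus also present over all tested genes. The 2 measures differ, so its size in the members was not compared with that in all genes. The order of libraries was counted for the members only. In untreated PEO4 B, replicate 2 was the highest library for 9 of the 10 members that rose by 6 h of PDS, and replicate 3 the lowest for 8 of them. For the 9 members that fell, replicate 3 was the highest library for 5 and replicate 2 the lowest for 5. Results that lose their call without one of these libraries are named beside their values.

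Of the 38 members, 34 had enough reads to be tested in at least 1 table. ITGA8, ITGAD, ITGAL and LAMB4 were tested in neither, ITGA11 only in the first and ITGAM only in the second. Another low member, ITGB3, the beta chain of the platelet fibrinogen receptor, was tested but stayed below 1 CPM in all 8 conditions. By contrast 18 members were at 10 CPM or more, and 8 at 100 CPM or more, in every condition. Of the 34 tested, 31 (91.2%) passed the 2-fold rule in at least 1 comparison, beside 49.4% of the 17506 genes tested in either table, and ITGA3, ITGAV and ITGB1 passed it in none.

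**Figure D1:**
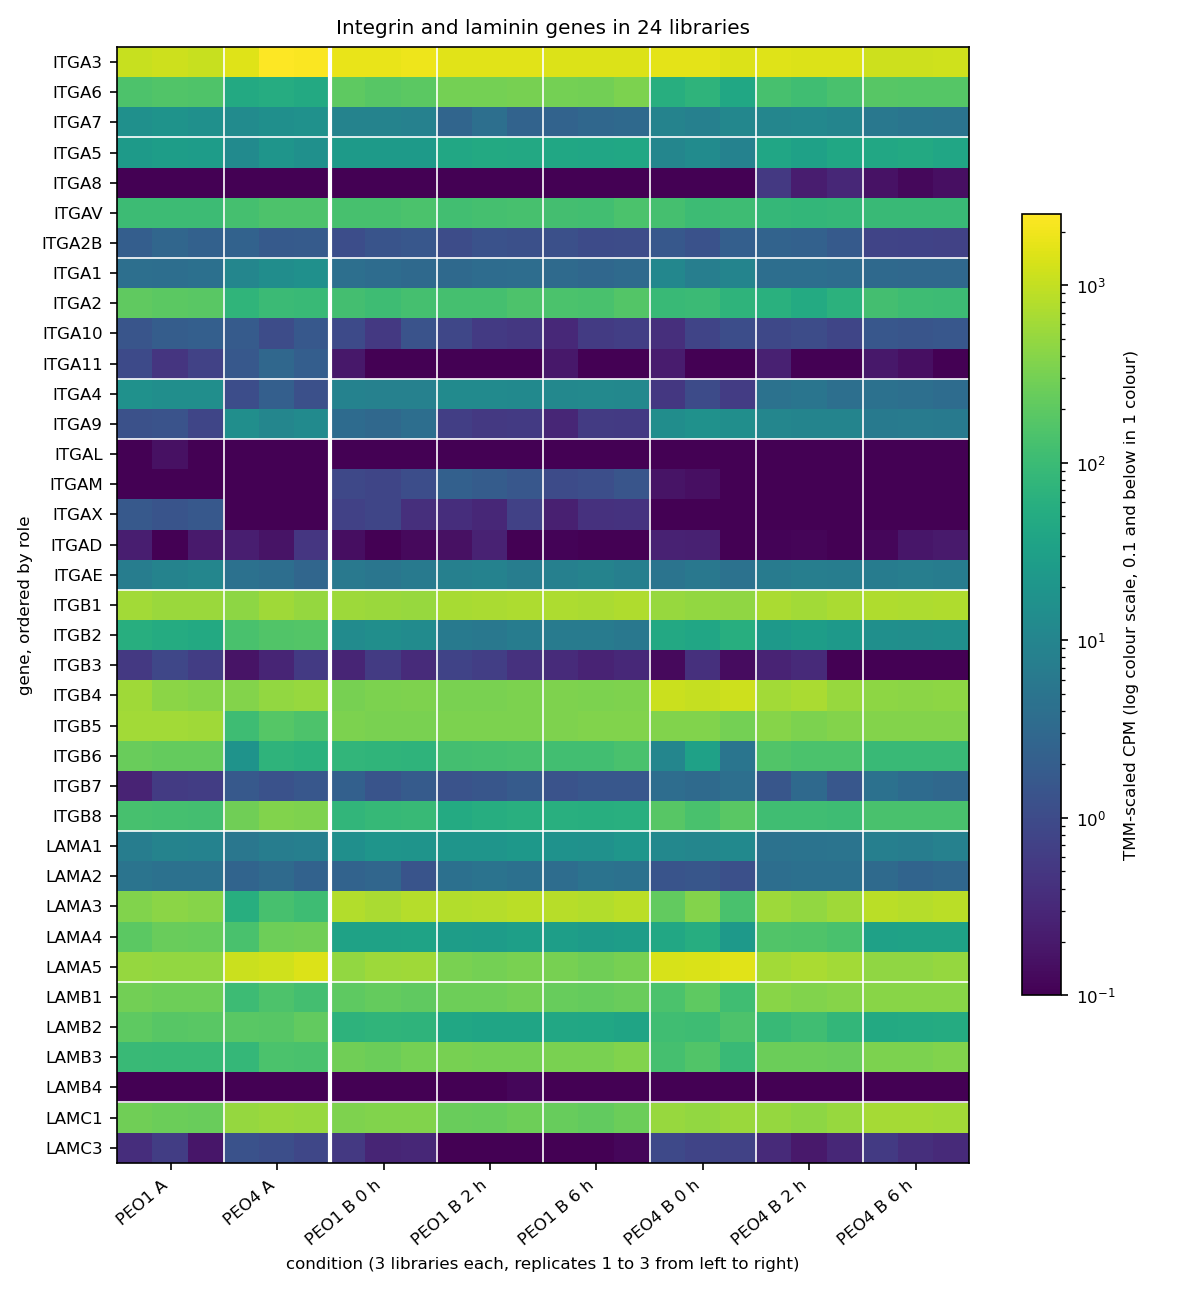
TMM-scaled CPM (log colour scale) of 37 integrin and laminin genes (rows, by role) in the 24 libraries (columns, 3 per condition), the thick line dividing the separately scaled tables. ITGA3, ITGB1 and LAMA5 are bright throughout, LAMB4 and ITGAL are dark throughout, and ITGA4 is bright in PEO1 where ITGA9 is dim, with the reverse in untreated PEO4.

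The promoters of 4 members that carried the PDS results are shown next, chosen after their values were seen. LAMA3 and LAMB3 are chains that rose in PEO4, LAMA5 is a chain that fell, and ITGA5 is a receptor that rose in PEO4. Other members that rose or fell there, such as LAMB1, ITGB6 and LAMB2, are not shown. RefSeq start-site windows (GRCh38.p14) were found for 26 of the 38 members, in 33 windows. Each run is the 250 bases before a start site, 5′ to 3′ on the gene's strand. In the first pair capitals mark the AP-1 letters TGACTCA or TGAGTCA, which stood in 4.20% of all 35116 windows of this length, and the reverse complement of either is the other, so both strands were covered. In the second pair capitals mark a G-quadruplex pattern on either strand, 4 runs of at least 3 G (or C) separated by 1 to 7 bases, which stood in 23.5% of all windows. Of the 33 member windows 13 held the pattern and 2 held AP-1 letters, and none of the 4 windows shown held both. The 2 with AP-1 letters were the LAMA3 and LAMB3 windows shown. Any link of either set of letters to the changes was not tested.

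LAMA3, chr18:23872770-23873019, plus strand: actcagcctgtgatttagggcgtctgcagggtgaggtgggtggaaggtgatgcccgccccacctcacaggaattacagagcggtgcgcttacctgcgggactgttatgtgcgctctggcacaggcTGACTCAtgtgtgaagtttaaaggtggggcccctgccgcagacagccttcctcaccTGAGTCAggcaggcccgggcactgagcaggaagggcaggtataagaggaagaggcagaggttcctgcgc
LAMB3, chr1:209651375-209651624, minus strand: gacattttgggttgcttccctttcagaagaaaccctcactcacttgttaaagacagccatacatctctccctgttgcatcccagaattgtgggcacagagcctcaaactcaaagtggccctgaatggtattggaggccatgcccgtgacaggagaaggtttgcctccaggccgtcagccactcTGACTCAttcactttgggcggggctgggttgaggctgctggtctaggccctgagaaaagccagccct
LAMA5, chr20:62367313-62367562, minus strand: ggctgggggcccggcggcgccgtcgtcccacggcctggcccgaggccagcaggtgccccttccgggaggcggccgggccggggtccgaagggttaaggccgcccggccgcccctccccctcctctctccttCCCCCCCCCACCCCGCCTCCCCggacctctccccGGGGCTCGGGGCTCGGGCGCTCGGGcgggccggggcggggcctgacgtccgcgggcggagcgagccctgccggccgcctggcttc
ITGA5, chr12:54419267-54419516, minus strand: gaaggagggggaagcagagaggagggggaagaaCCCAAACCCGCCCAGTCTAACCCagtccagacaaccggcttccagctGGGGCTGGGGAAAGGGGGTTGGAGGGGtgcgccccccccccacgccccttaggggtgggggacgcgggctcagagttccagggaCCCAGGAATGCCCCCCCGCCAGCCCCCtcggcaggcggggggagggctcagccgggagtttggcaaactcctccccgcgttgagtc

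The LAMA3 window starts a transcript inside the gene (chr18:23689453-23955066), and its pair of AP-1 runs lay 125 to 119 and 69 to 63 bases before the start. The LAMB3 window, likewise inside its gene (chr1:209614870-209652425), held 1 such run 67 to 61 bases before the start. LAMA5 held 1 G-quadruplex pattern on each strand, and ITGA5 held 1 on its own strand and 2 on the other. These are matches of letters, not sites of binding, and gene-level counts do not separate transcripts from different starts. For LAMA3 the canonical transcript is the long one of 10651 bases, so its CPM per kb would be larger if reads came from the shorter transcript.

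Among the laminin-type alpha subunits ITGA3 had the highest CPM per kb of all members in each of the 8 conditions. Its level ran from 223 ± 8.01 CPM per kb in PEO1 A to 436 ± 110.4 in PEO4 A, and within the B table from 238 ± 5.73 in PEO4 at 6 h to 374 ± 23.7 in untreated PEO1. In CPM the untreated B libraries of ITGA3 were 1760.3, 1767 and 1964 in PEO1 and 1642, 1653 and 1473 in PEO4, without overlap, and the A libraries were 1057, 1134 and 1079 in PEO1 and 1511, 2498 and 2385 in PEO4. ITGA6, another laminin-type alpha subunit, lay between 8.41 ± 0.666 and 53.0 ± 4.52 CPM per kb in the same conditions. ITGA7, best known from muscle, stayed at or below 4.05 ± 0.256 CPM per kb.

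The other alpha subunits were lower. ITGAV, which binds RGD-bearing ligands such as vitronectin, held 11.9 ± 0.371 to 19.9 ± 1.56 CPM per kb, and the fibronectin receptor ITGA5 held 2.53 ± 0.540 to 10.5 ± 0.347. ITGA2, a collagen receptor, lay between 7.47 ± 1.09 and 25.3 ± 1.39 CPM per kb, and the remaining collagen receptors ITGA1, ITGA10 and ITGA11 reached at most 1.27 ± 0.260 CPM per kb in any condition. ITGAE, which pairs with ITGB7 to bind E-cadherin, was the highest of the 5 leukocyte-type alpha subunits in all 8 conditions, at 0.979 ± 0.204 to 2.34 ± 0.405 CPM per kb.

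Among beta subunits ITGB1, the common partner of most alpha chains, led in 7 conditions at 137 ± 19.1 to 198 ± 2.87 CPM per kb. Untreated PEO4 B was the exception. There ITGB4 stood at 186 ± 12.9 against 131 ± 10 for ITGB1, and the lowest ITGB4 library, 174, was above the highest ITGB1 library, 142. This order rests on the transcript chosen, since ITGB1 has long alternative exons, and dividing by all merged exons put ITGB4 or ITGB5 first in all 8 conditions.

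Among laminin alpha chains, LAMA5 made up 73.1 ± 5.98% of the summed alpha-chain CPM per kb in PEO4 A and 81.0 ± 7.80% in untreated PEO4 B. In PEO1 it made up 38.5 ± 2.61% in A and 37.5 ± 3.47% in untreated B, where LAMA3 took 57.0 ± 3.67%. LAMC1, the widely used gamma chain, held 65.1 ± 2.88 CPM per kb in untreated PEO4 B and 45.9 ± 1.48 in untreated PEO1 B. LAMA1, LAMA2, LAMB4 and LAMC3 stayed at or below 2.14 ± 0.156 CPM per kb.

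The untreated comparison of PEO4 A with PEO1 A asked how the resistant line differs from the BRCA2-deficient sensitive one. Of 33 members tested, 10 were higher in PEO4 (30.3%) and 9 lower (27.3%), beside 12.6% and 13.1% of all genes tested. The median log2 change was -0.13 over the members and -0.01 over all genes. No called member had overlapping groups. This was not counted over all genes, so it is not read as particular to the members. The same comparison in untreated B lines, where PEO1 carries a working BRCA2, gave 7 of 33 higher (21.2%) and 9 lower (27.3%), beside 12.2% and 12.6% of all genes, with a median of -0.21 over the members against -0.0011 over all genes.

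Of the 32 members tested in both pairs, 11 were called the same way in both. The 6 higher (18.8%) and 5 lower (15.6%) stood beside 6.59% and 7.68% of the 15396 genes tested in both. Higher in PEO4 were ITGA1, ITGA9, ITGB2, ITGB7, LAMA5 and LAMC3, and lower were ITGA4, ITGA6, ITGAX, ITGB6 and LAMA3. The 2 comparisons share no library.

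The largest opposed pair was ITGA4 and ITGA9, related alpha subunits that both pair with ITGB1 and share ligands such as VCAM1 and osteopontin. ITGA4 was read at 17.0, 15.2 and 14.8 CPM in PEO1 A and at 1.08, 2.15 and 1.16 in PEO4 A. The lines did not overlap, and ITGA4 was lower in PEO4 by a log2 change of -3.45 ± 0.23 (edgeR adjusted p = 7.45e-08), with -3.64 ± 0.17 in B (edgeR adjusted p = 1.24e-15). ITGA9 went the other way, from 1.21, 1.33 and 0.845 CPM in PEO1 A to 14.8, 10.4 and 12.5 in PEO4 A. Its log2 change was 3.49 ± 0.21 (edgeR adjusted p = 2.38e-08), and 2.14 ± 0.13 in B (edgeR adjusted p = 1.34e-13).

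Laminin receptors and their alpha chains also differed between lines. ITGA6 was lower in PEO4 by -1.67 ± 0.08 in A and -1.77 ± 0.15 in B (edgeR adjusted p = 2.68e-09 and 4.28e-08). LAMA3 was read at 370.5, 430.3 and 397 CPM in PEO1 A and at 58.1, 133 and 107 in PEO4 A, without overlap. Its log2 change was -2.01 ± 0.32 in A and -1.65 ± 0.26 in B (edgeR adjusted p = 0.00269 and 8.42e-05). LAMA5 was higher in PEO4, at 1105, 1220.5 and 1454 CPM in A against 505, 492 and 492 in PEO1. The log2 change of LAMA5 was 1.34 ± 0.10 in A and 1.42 ± 0.08 in B (edgeR adjusted p = 1.95e-07 and 1.72e-14).

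ITGB6, which pairs only with ITGAV and binds latent TGF-beta, varied most between untreated PEO4 libraries among the 18 members at 10 CPM or more in every condition, with an SD of 57.4% of the mean in A and 89.8% in B. It was read at 245, 230.5 and 228 CPM in PEO1 A and at 17.9, 73.1 and 65.4 in PEO4 A, a log2 change of -2.18 ± 0.58 (edgeR adjusted p = 0.0270). The groups did not overlap, but the call was lost (edgeR adjusted p 0.0631 to 0.0742) when PEO4 A replicate 3 or any PEO1 A library was left out. In untreated B the values were 79.1, 74.1 and 73.3 against 10.5, 32.4 and 5.20 CPM, a log2 change of -2.26 ± 0.39 (edgeR adjusted p = 0.000190). That value became -3.25 without PEO4 B untreated replicate 2 and -1.84 without replicate 3.

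Leukocyte-type integrins were low and partly line-specific. ITGB2, the beta chain of the leukocyte integrins, was nevertheless plainly read, at 139, 160.5 and 163 CPM in PEO4 A against 57.1, 50.3 and 47.8 in PEO1 A. It was higher in PEO4 by 1.58 ± 0.09 in A and 1.78 ± 0.11 in B (edgeR adjusted p = 1.64e-08 and 9.75e-13). ITGAX, one of its alpha partners, was at 0 counts in all 3 PEO4 A libraries against 53 to 88 counts in PEO1 A. On a floor of 3 counts per library ITGAX was at least 21.3-fold lower in PEO4 A, and at least 4.63-fold lower in untreated PEO4 B, where the highest library held 2 counts. The 5 leukocyte markers summed to 5.44 to 5.71 CPM in PEO1 A and 0.755 to 1.47 in PEO4 A, nearly all of it CD14. In untreated B the sum was 4.21 to 5.66 CPM in PEO1 and 1.57 to 2.61 in PEO4. ITGAX, and in untreated B ITGAM, were lower in PEO4 as the sum was, and ITGB2 was higher. The part of these markers in the results was not tested.

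Some members differed between lines in 1 pair only. No test compared the pairs, which also differed in medium. ITGB5, partner of ITGAV in vitronectin binding, was read at 611, 617 and 601 CPM in PEO1 A and 109, 171 and 150.4 in PEO4 A, a log2 change of -2.09 ± 0.14 (edgeR adjusted p = 4.18e-07). In untreated B it was 337, 332 and 332 against 365, 362 and 306 CPM, overlapping, with 0.05 ± 0.06 (edgeR adjusted p = 0.504). ITGB4 did the opposite. It was 582, 423 and 393 against 375, 485 and 534 CPM in A, overlapping, and 314, 339.6 and 347 against 1098, 1024 and 1176 in untreated B, a log2 change of 1.72 ± 0.08 (edgeR adjusted p = 3.54e-16).

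LAMB3, a beta chain that joins LAMA3 in epithelial laminin, was read at 126, 160.0 and 94.1 CPM in untreated PEO4 B against 275, 258 and 306 in PEO1 B, without overlap. It was lower in untreated PEO4 B by -1.14 ± 0.13 (edgeR adjusted p = 1.46e-06), which became -0.97 without PEO4 B untreated replicate 3. In A its change was 0.36 ± 0.18 (edgeR adjusted p = 0.116).

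**Figure D2:**
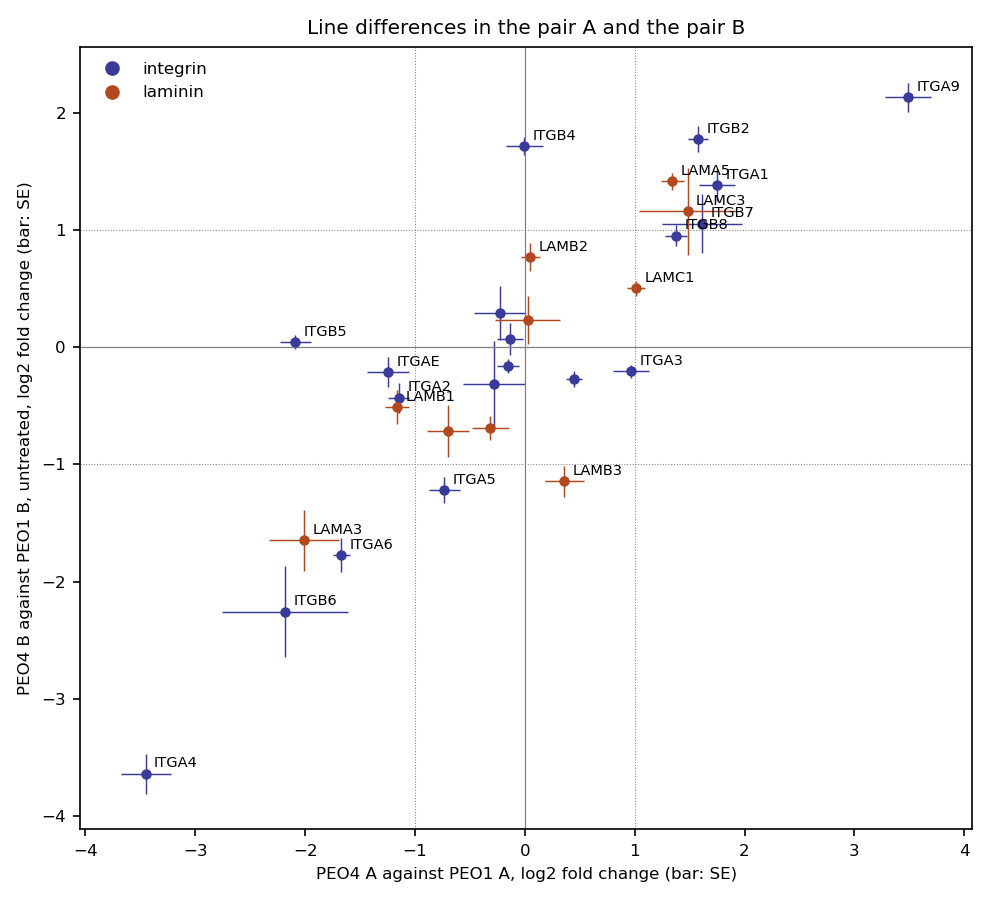
Log2 fold change (PEO4 over PEO1, bars are SE) in pair A (horizontal) against untreated pair B (vertical) for 29 members tested in both, leaving out, among others, the very low ITGAX and ITGB3. ITGA9 (3.49 and 2.14) and ITGA4 (-3.45 and -3.64) mark the ends of the diagonal, while ITGB5 and ITGB4 lie on the axes.

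The remaining line differences were these. In A, ITGB8, a partner of ITGAV that binds latent TGF-beta, and LAMC1 were higher in PEO4 by 1.38 ± 0.10 and 1.02 ± 0.08, and ITGA11 by 1.57 ± 0.34. ITGA2, LAMB1 and ITGAE were lower there by -1.15 ± 0.10, -1.16 ± 0.11 and -1.24 ± 0.19. The LAMC1 change fell to 0.97 without PEO1 A replicate 3 and 0.98 without PEO4 A replicate 2. In untreated B, ITGA5 was lower in PEO4 by -1.22 ± 0.11, and ITGAM by -3.08 ± 0.51 from at most 4 counts in any PEO4 library. ITGB7 was higher in PEO4 by 1.61 ± 0.36 in A and 1.06 ± 0.25 in B, the B value being 0.89 without PEO1 B untreated replicate 2 and 0.98 without PEO4 B untreated replicate 3.

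In PEO1 B, PDS moved few of these genes past 2-fold. After 2 h 1 of 33 rose (3.03%) and 4 fell (12.1%), beside 1.18% and 6.39% of all genes, and after 6 h none rose and 4 fell, beside 1.29% and 6.83%. Between 2 and 6 h no member was called by edgeR or by DESeq2, and 2 had an unadjusted p below 0.05 in edgeR, beside 0.0705% higher and 0.0999% lower of all genes. A further 12 members at 2 h and 14 at 6 h had an edgeR adjusted p below 0.05 with a change under 2-fold.

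ITGA9 fell in PEO1 from 3.45, 3.10 and 3.82 CPM to 0.661, 0.543 and 0.567 at 2 h and to 0.298, 0.576 and 0.558 at 6 h. Untreated and treated libraries did not overlap, and the log2 change was -2.55 ± 0.18 at 2 h and -2.86 ± 0.19 at 6 h (edgeR adjusted p = 6.88e-11 and 1.88e-11). ITGA7 fell from 9.15, 9.21 and 8.6 CPM to 2.77, 4.01 and 2.51 at 2 h, by -1.53 ± 0.15 (edgeR adjusted p = 6.01e-09), with -1.63 ± 0.15 at 6 h. ITGB2 fell from 13.1, 14.6 and 13.3 CPM to 6.14, 5.84 and 7.10 at 2 h, by -1.11 ± 0.12 (edgeR adjusted p = 9.82e-08), with -1.10 ± 0.12 at 6 h. LAMC3 was at 7 to 11 counts untreated and at most 3 counts at 2 h, which on the floor of 3 counts per library is a fall of at least 4.3-fold. ITGAM was the gene that rose at 2 h, from 0.910, 0.826 and 1.10 CPM to 2.20, 1.91 and 1.58, by 1.0 ± 0.29 (edgeR adjusted p = 0.00602). It fell below the 2-fold limit when PEO1 B untreated replicate 1 (0.99) or 2 (0.92) or 2 h replicate 1 (0.90) was left out.

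The abundant PEO1 members moved less. LAMA5 went from 543 ± 58.4 CPM to 317 ± 11.9 at 2 h and 302 ± 19.1 at 6 h, a log2 change of -0.84 ± 0.07 at 6 h (edgeR adjusted p = 1.73e-09). LAMB2 changed by -0.83 ± 0.12 and LAMC1 by -0.61 ± 0.06 at 6 h, while ITGA5 changed by 0.73 ± 0.10. LAMA3 changed by 0.10 ± 0.25 (edgeR adjusted p = 0.757) and ITGB4 by 0.04 ± 0.07 (edgeR adjusted p = 0.666), both with overlapping libraries.

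In PEO4 B the same treatment moved more members in both directions. After 2 h 8 of 33 rose (24.2%) and 5 fell (15.2%), beside 6.4% and 11% of all genes. After 6 h 10 rose (30.3%) and 9 fell (27.3%), beside 6.26% and 16.3%. From 2 to 6 h none rose further past 2-fold and 4 fell (12.1%), beside 2.27% and 9.71%. With libraries scaled to their totals rather than by TMM, the median change of all genes went from -0.03 to -0.19 at 6 h in PEO4, and to -0.13 at 2 h in PEO4 and -0.17 at both times in PEO1. Under it 8 members rose and 11 fell at 6 h in PEO4, with 698 genes higher and 3334 lower of all tested in place of 1066 and 2782. The 3 calls it removed were ITGA10 (0.84) and LAMA2 (0.96) at 6 h in PEO4 and ITGAM (0.86) at 2 h in PEO1.

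LAMA3 and LAMB3, chains of the anchoring laminin of epithelia, both rose in PEO4 by 6 h. LAMA3 was read at 219.6, 381 and 136 CPM untreated, at 575, 475 and 592 after 2 h and at 859.8, 822 and 874 after 6 h. No treated library overlapped an untreated one. LAMA3 rose by 1.16 ± 0.26 at 2 h and 1.80 ± 0.26 at 6 h (edgeR adjusted p = 0.00149 and 3.79e-05), the 2 h value being 0.87 without untreated replicate 3 and its edgeR adjusted p 0.0512 when only the groups compared were fitted.

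LAMB3 was at 126, 160.0 and 94.1 CPM untreated, 253, 259 and 245 at 2 h and 336, 337 and 363 at 6 h. It rose by 1.45 ± 0.13 at 6 h (edgeR adjusted p = 9.58e-08), after a 2 h change of 1.0 ± 0.13 that lay just under the 2-fold limit. At 6 h the PEO4 libraries overlapped those of PEO1, 852 ± 26.7 against 827 ± 44 CPM for LAMA3 and 345 ± 15.7 against 344 ± 26.3 for LAMB3.

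LAMA5 (chr20:62309065-62367312), the alpha chain of most adult epithelial basement membranes, moved the other way. It was read at 1353, 1400.3 and 1599 CPM untreated, 605, 684 and 621 at 2 h and 469, 473 and 502 at 6 h. The 3 time points did not overlap, and it fell by 1.19 ± 0.08 at 2 h and by 1.59 ± 0.08 at 6 h on the log2 scale (edgeR adjusted p = 1.21e-12 and 5.15e-15). LAMB2 fell by 6 h, from 112, 109.8 and 149 CPM to 46.5, 48.6 and 50.9, by 1.35 ± 0.12 on the log2 scale (edgeR adjusted p = 5.46e-08). LAMB1, the alternative beta chain, rose from 142, 201 and 111 CPM to 406, 364 and 402 at 2 h and 421, 417 and 422 at 6 h, by 1.37 ± 0.14 and 1.47 ± 0.15 (edgeR adjusted p = 1.06e-06 and 3.77e-07).

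As shares of the alpha-chain pool per kb, LAMA5 went from 81.0 ± 7.80% in untreated PEO4 B to 43.4 ± 3.51% at 2 h and 32.9 ± 0.613% at 6 h. LAMA3 went from 14.5 ± 6.63% to 39.9 ± 4.04% and 62.6 ± 0.675%. Within single libraries the ratio of LAMA5 to LAMA3 per kb was 3.43 to 10.9 untreated, 0.978 to 1.34 at 2 h and 0.509 to 0.536 at 6 h. In PEO1 B this ratio was 0.560 to 0.767 untreated and 0.334 to 0.349 at 6 h. These ratios do not depend on how libraries were scaled, and they were chosen after the values were seen.

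LAMA4, an alpha chain typical of vessel and mesenchymal laminin, had a time course of its own in the B lines. It took 27.2 ± 2.06% of the alpha-chain pool per kb in PEO1 A and 20.2 ± 4.36% in PEO4 A. In untreated B its share was lower, 3.78 ± 0.152% in PEO1 and 3.58 ± 1.33% in PEO4. In PEO4 B LAMA4 was read at 43.4, 55.2 and 23.6 CPM untreated, 157, 151 and 137 at 2 h and 32.5, 33.8 and 34.3 at 6 h. The 2 h libraries stood above all other PEO4 B libraries. The rise was 1.87 ± 0.20 by 2 h and the fall 2.15 ± 0.20 on the log2 scale from 2 to 6 h (edgeR adjusted p = 1.85e-06 and 6.20e-07). In PEO1 B it stayed between 25.7 and 35.3 CPM in all 9 libraries. The 3 endothelial markers summed to 1.31 to 2.72 CPM in untreated PEO4 B, 0.408 to 0.764 at 2 h and 0.0610 to 0.191 at 6 h, and their part in this result was not tested.

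Other chains moved at low levels. LAMA2, the muscle laminin alpha chain, rose in PEO4 from 1.39, 1.51 and 1.2 CPM to 3.86, 4.25 and 4.13 at 2 h, by 1.58 ± 0.20 (edgeR adjusted p = 1.46e-07), and was 1.12 ± 0.20 above untreated at 6 h. LAMA1, the chain of early embryonic laminin, fell from 11.5, 10.2 and 12.1 CPM to 4.47, 4.81 and 4.94 at 2 h, by 1.25 ± 0.11 on the log2 scale (edgeR adjusted p = 7.20e-10). LAMC3 fell by 1.55 ± 0.35 at 2 h from 16 to 22 counts to 7 to 13. LAMC1 changed little, by 0.27 ± 0.06 at 6 h (edgeR adjusted p = 0.000510).

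**Figure D3:**
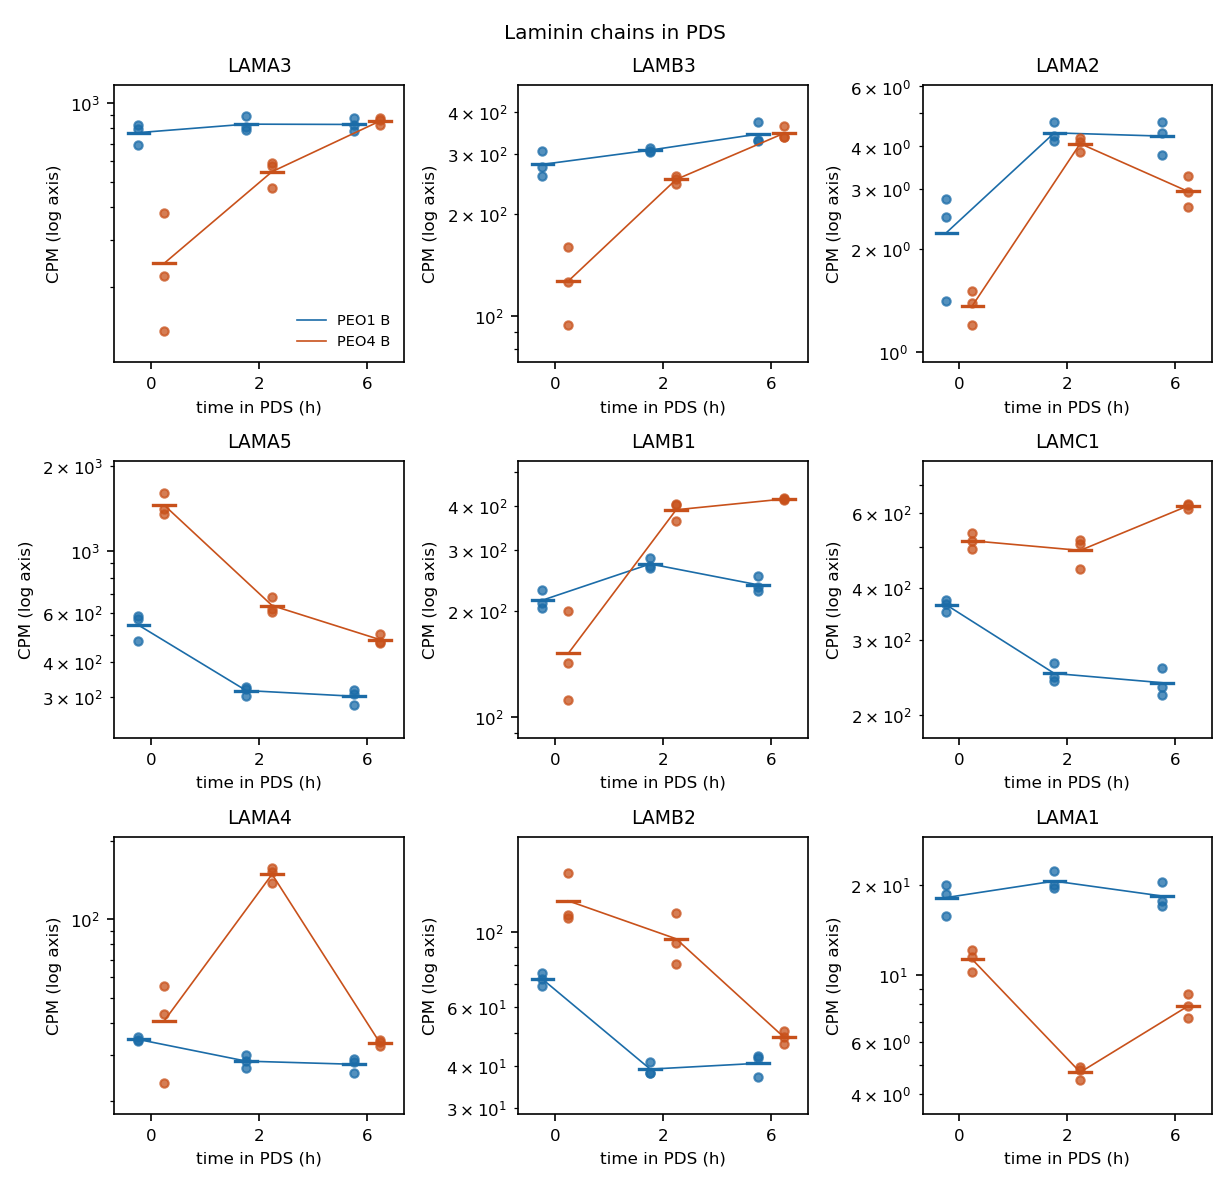
CPM (log axis) of 9 laminin chains against hours in PDS in PEO1 B (blue) and PEO4 B (orange), with points for single libraries, short bars for means of 3 and lines joining the means. In PEO4 the LAMA3 and LAMB3 lines climb towards those of PEO1 while LAMA5 and LAMB2 descend, and LAMA4 peaks at 2 h at 149 CPM.

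Among integrins, the partners of the hemidesmosome receptor parted in PEO4. ITGA6 (chr2:172427336-172506459) was read at 56.4, 71.7 and 41.1 CPM untreated, 133, 112 and 138 at 2 h and 180.5, 171 and 171 at 6 h. It rose by 1.18 ± 0.14 at 2 h and 1.63 ± 0.14 at 6 h (edgeR adjusted p = 4.35e-06 and 1.05e-07), with 1.0 at 2 h, just under the limit, without untreated replicate 3. ITGB4 (chr17:75721459-75757818) went from 1098, 1024 and 1176 CPM to 609, 703 and 525 at 2 h and 439, 436 and 450.0 at 6 h, without overlap. ITGB4 fell by 1.32 ± 0.07 at 6 h on the log2 scale (edgeR adjusted p = 1.03e-13). Within libraries the ratio of ITGB4 to ITGA6 per kb went from 14.1 to 28.2 untreated to 2.40 to 2.59 at 6 h.

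ITGB6 (chr2:160099671-160200272) had the largest rise. From 10.5, 32.4 and 5.20 CPM it reached 160.5, 142 and 143 at 2 h and 94.8, 97.4 and 95.0 at 6 h, above every untreated library. The log2 change was 3.23 ± 0.39 at 2 h and 2.60 ± 0.39 at 6 h (edgeR adjusted p = 8.38e-06 and 4.81e-05). It rested on the spread of the untreated libraries, being 4.23 and 3.60 without untreated replicate 2 and 2.82 and 2.19 without replicate 3.

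The fibronectin receptors ITGA4 and ITGA5 rose together in PEO4. ITGA5 (chr12:54395261-54419266) was read at 10.3, 13.3 and 8.75 CPM untreated, 39.7, 32.3 and 42.5 at 2 h and 43.8, 46.6 and 40.8 at 6 h. It rose by 1.83 ± 0.11 and 2.03 ± 0.11 (edgeR adjusted p = 2.09e-12 and 2.65e-13), and its 6 h level was close to that of treated PEO1, 41.3 ± 1.18 CPM. ITGA4 (chr2:181457205-181538940) rose from 0.519, 1.0 and 0.599 CPM to 4.61, 5.07 and 4.10 at 2 h and 4.29, 4.09 and 3.56 at 6 h. Its log2 change was 2.71 ± 0.18 and 2.51 ± 0.18 (edgeR adjusted p = 2.35e-12 and 8.96e-12), and it stayed below the 11.3 ± 0.253 CPM of PEO1 at 6 h.

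Subunits that fell in PEO4 included ITGA1, a collagen receptor that pairs with ITGB1. It went from 10.8, 7.68 and 9.58 CPM to 3.89, 3.82 and 3.53 at 2 h and 3.22, 3.11 and 3.05 at 6 h, without overlap. ITGA1 fell by 1.32 ± 0.13 and 1.58 ± 0.13 on the log2 scale (edgeR adjusted p = 2.67e-09 and 1.21e-10). PELO lies within the ITGA1 gene, and reads of both genes could be mixed there.

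ITGB2 fell in PEO4 from 45.3, 39.3 and 56.3 CPM to 15.2, 14.7 and 15.2 at 6 h, by 1.64 ± 0.11 on the log2 scale (edgeR adjusted p = 2.95e-12). ITGA9 fell from 14.2, 16.6 and 14.9 CPM to 6.58, 6.80 and 6.22, by 1.22 ± 0.11 (edgeR adjusted p = 6.43e-10). The leukocyte markers summed to 1.57 to 2.61 CPM in untreated PEO4 B, 5.75 to 6.26 at 2 h and 1.81 to 2.24 at 6 h, again nearly all CD14, and their part in these results was not tested.

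The lowest members need care. ITGAM was called lower in PEO4 at both times from at most 4 counts in any untreated library, its groups overlapped, and its fall was at least 1.35-fold at 2 h and 1.28-fold at 6 h on the floor of 3 counts. Without untreated replicate 1 or 2 its 2 h call was lost (edgeR adjusted p 0.1 and 0.0542). ITGB3 fell by at least 2.65-fold at 6 h, from 3 to 8 counts to at most 2, a call lost without untreated replicate 2 (edgeR adjusted p 0.0741). ITGA2B, its platelet partner, fell at 6 h from 1.6, 1.31 and 2.12 CPM to 0.787, 0.763 and 0.748, by 1.13 ± 0.23 on the log2 scale, and 0.92 without untreated replicate 3. ITGA10 rose at 6 h by 1.0 ± 0.33 (edgeR adjusted p = 0.00885), a call lost under library totals, DESeq2 size factors (0.98), the DESeq2 Wald test (0.98), a fit of the groups compared alone (0.98), and without untreated replicate 1 (0.67), 6 h replicate 1 or 6 h replicate 3 (both 1.0, just under the limit).

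From 2 to 6 h in PEO4, ITGA7 fell from 10.5, 11.3 and 9.91 CPM to 5.70, 5.06 and 4.85, by 1.01 ± 0.13 on the log2 scale (edgeR adjusted p = 4.03e-07). It was 0.96 to 0.99 in size without 2 h replicate 2, 6 h replicate 2 or 6 h replicate 3. ITGA2B fell by 1.5 ± 0.21 and ITGB3 by at least 2.73-fold over the same interval. ITGA2, the main collagen receptor of these cells, dipped at 2 h, with 96.5, 97.7 and 71.5 CPM untreated, 60.9, 49.1 and 65.7 at 2 h and 119, 108 and 105 at 6 h. Its changes of -0.59 ± 0.13 and then 0.92 ± 0.13 (edgeR adjusted p = 0.000857 and 1.70e-05) stayed under 2-fold.

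ITGB1, ITGA3 and ITGAV, the members called nowhere, still shifted within the limit. In PEO4 at 6 h ITGB1 changed by 0.60 ± 0.06, ITGA3 by -0.45 ± 0.06 and ITGAV by -0.23 ± 0.07 (edgeR adjusted p = 3.18e-09, 1.12e-07 and 0.00390). ITGB1 was read at 529.6, 479 and 457 CPM untreated and at 752, 731 and 736 at 6 h, so the libraries did not overlap.

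**Figure D4:**
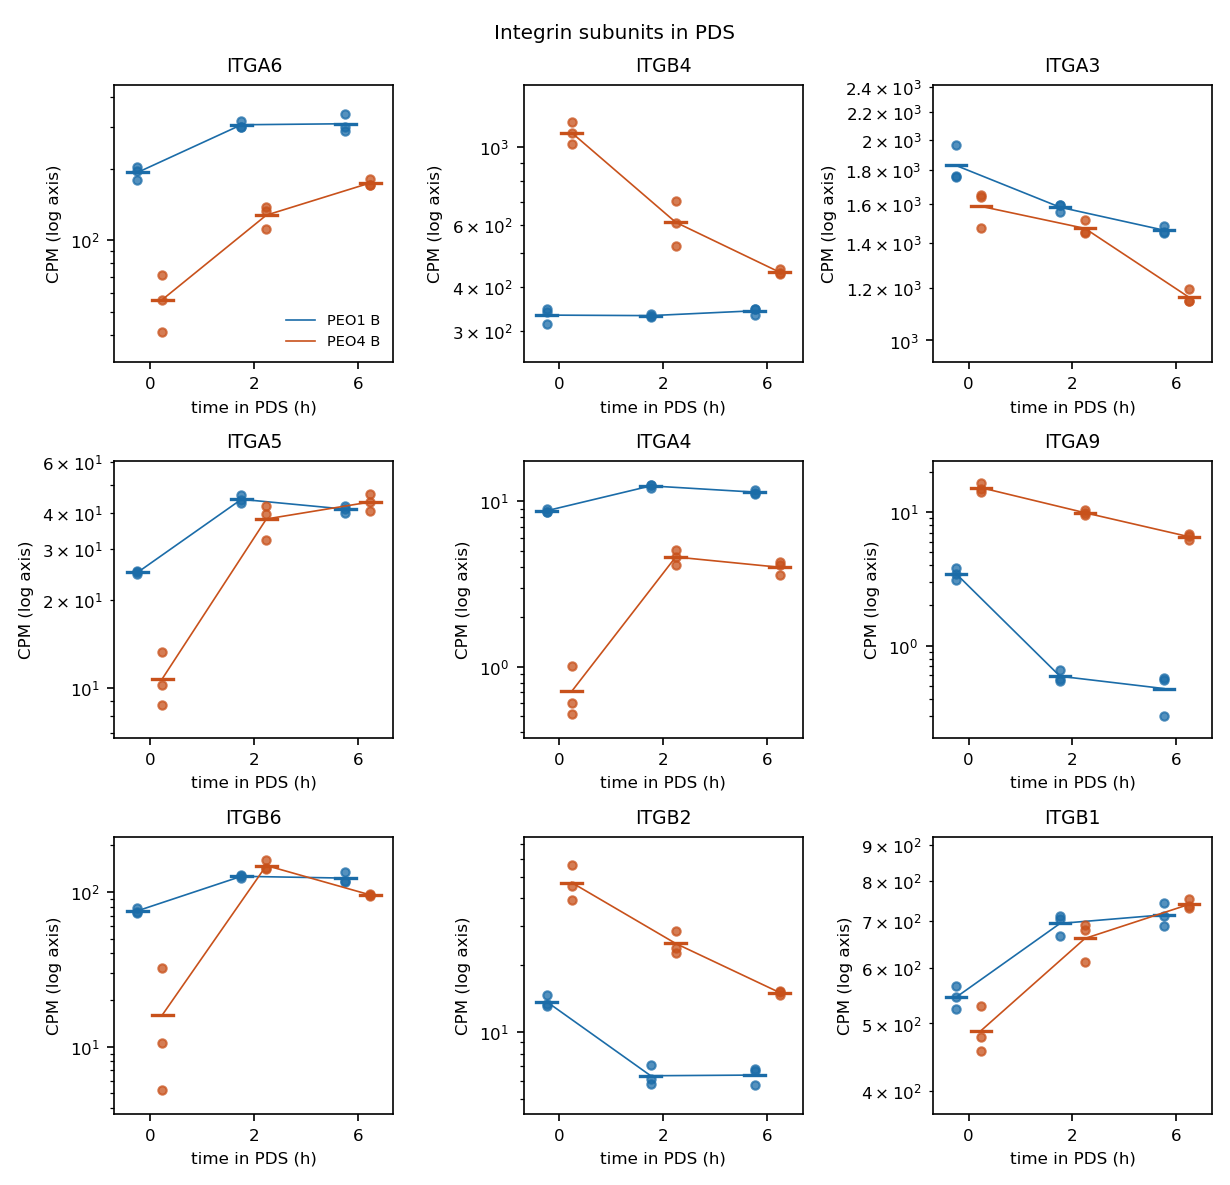
CPM (log axis) of 9 integrin subunits against hours in PDS in PEO1 B (blue) and PEO4 B (orange), with points for single libraries, short bars for means of 3 and lines joining the means. In PEO4 the ITGA4, ITGA5, ITGA6 and ITGB6 lines rise from below those of PEO1, ITGB4 falls from 1099.6 to 442 CPM while all 9 PEO1 libraries lie between 314 and 348, and ITGA9 falls in both lines.

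Whether PDS acted differently in the 2 lines was tested as the difference between the responses, each against its own untreated libraries. At 2 h 7 of 33 members responded more positively in PEO4 (21.2%) and 3 more negatively (9.09%), beside 6.1% and 4.92% of all genes. At 6 h the counts were 8 (24.2%) and 3 (9.09%), beside 5.42% and 9.34%. The 2 tests share the untreated libraries.

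At 6 h LAMA3, LAMB1 and LAMB3 differed by 1.69 ± 0.36, 1.32 ± 0.20 and 1.15 ± 0.18 (edgeR adjusted p = 0.00181, 9.22e-05 and 0.000107), the LAMB3 value being 0.98 without PEO4 B untreated replicate 3. ITGA4, ITGB6 and ITGA5 differed by 2.14 ± 0.22, 1.90 ± 0.51 and 1.30 ± 0.15, the ITGB6 value being 2.89 without PEO4 B untreated replicate 2 and 1.48 without replicate 3. ITGB4 differed by -1.36 ± 0.10 (edgeR adjusted p = 2.12e-10). For LAMA5, which decreased in both lines, the difference was -0.75 ± 0.11 (edgeR adjusted p = 2.93e-06). For ITGA9 it was 1.64 ± 0.23, its fall in PEO1 being the deeper one. At 2 h LAMA4 differed by 2.15 ± 0.28 (edgeR adjusted p = 5.42e-05) and ITGA7 by 1.69 ± 0.20, with a change of -1.53 ± 0.15 in PEO1 and 0.16 ± 0.13 in PEO4.

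**Figure D5:**
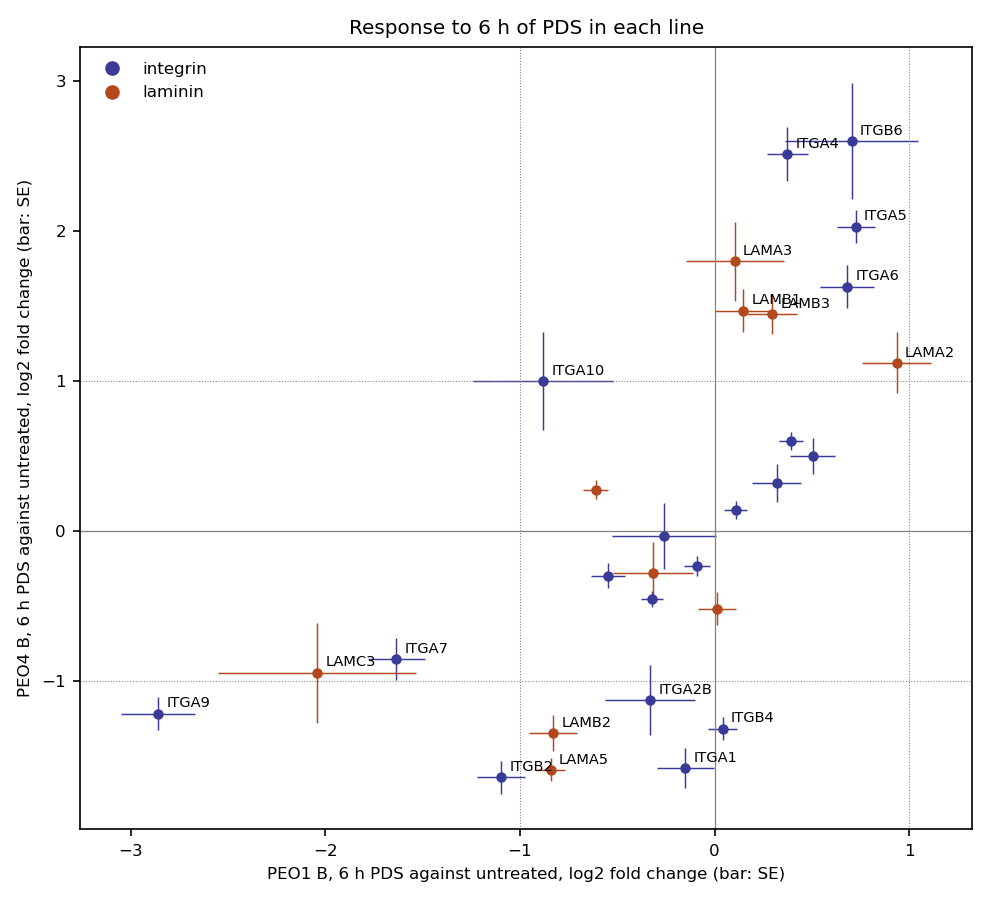
Log2 fold change after 6 h of PDS in PEO1 B (horizontal) and PEO4 B (vertical), bars are SE, for 29 members, leaving out, among others, ITGAM, ITGAX and ITGB3, whose libraries were near 0 in PEO4. ITGB6, ITGA4, ITGA5 and LAMA3 lie high above 1 on the vertical axis and within 1 of 0 on the horizontal, LAMA5 and LAMB2 are below 0 on both, and ITGA9 is farthest left at -2.86.

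The genes that work with these receptors were taken from 4 lists drawn up by function, with earlier results of these data known. Of 29 tested integrin tail binders and focal adhesion adaptors, 10 were lower (34.5%) and 4 higher (13.8%) in PEO4 A, with a median log2 change of -0.85, beside 13.1% and 12.6% of all genes. In untreated PEO4 B 7 were lower (24.1%) and 3 higher (10.3%), with a median of -0.31, beside 12.6% and 12.2%. The shares called after 6 h of PDS were no larger than those of all genes. In PEO4 1 rose (3.45%) and 4 fell (13.8%), with a median of 0.34, beside 6.26% and 16.3%, and in PEO1 none rose and 1 fell (3.45%), with a median of 0.09, beside 1.29% and 6.83%. TNS4 and TNS3, tensins that bind beta-subunit tails, fell in PEO4 by 2.80 ± 0.11 and 2.42 ± 0.08 on the log2 scale at 6 h. The fall of TNS3 in PEO1 was 1.06 ± 0.07.

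Of 8 hemidesmosome and tetraspanin partners, 3 fell (37.5%) and none rose in PEO4 at 6 h (median -0.32), beside 16.3% and 6.26% of all genes. In PEO1 edgeR and its 2-fold rule called none at 6 h (median 0.21), 7 of them having an unadjusted p below 0.05. COL17A1, the hemidesmosomal collagen that binds ITGB4, fell by 3.88 ± 0.19 and the tetraspanin CD82 by 3.59 ± 0.13 on the log2 scale. Of 16 basement membrane partners and other laminin receptors, 8 fell (50.0%) and 1 rose (6.25%) in PEO4 at 6 h (median -0.98), beside the same 16.3% and 6.26%. In PEO1 3 fell (18.8%) and none rose (median -0.51), beside 6.83% and 1.29%. BCAM, a receptor for LAMA5, fell in PEO4 by 2.67 ± 0.09 on the log2 scale. Between untreated lines 8 of the 16 were lower and 2 higher in PEO4 A, beside 13.1% and 12.6% of all genes, and 7 lower and 1 higher in PEO4 B, beside 12.6% and 12.2%. The lower ones were led by the basement membrane collagens COL4A2 (-9.64 ± 0.16 and -6.99 ± 0.12) and COL4A1 (-8.47 ± 0.16 and -6.69 ± 0.12). In PEO4 A these collagens were at 0.153 ± 0.0453 and 0.188 ± 0.0573 CPM, so the size of the A changes rests on few counts.

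Of 14 tested other integrin ligands, 9 were lower (64.3%) and none higher in PEO4 A (median -1.41), beside 13.1% and 12.6% of all genes. In untreated PEO4 B 5 were lower (35.7%) and 1 higher (7.14%), with a median of -0.57, beside 12.6% and 12.2%. After 2 h of PDS 4 rose (28.6%) and 2 fell (14.3%) in PEO4, beside 6.4% and 11%, led by CCN2 (2.78 ± 0.31) and CCN1 (2.37 ± 0.19), secreted ligands of several integrins. At 6 h 2 rose (14.3%) and 1 fell (7.14%), beside 6.26% and 16.3%, the larger rise being TNC, a ligand of ITGA9 (3.23 ± 0.42). TNC was at 5.16 ± 5.55 CPM untreated and 47.1 ± 1.40 at 6 h, so the size of its rise rests on scattered untreated libraries. In PEO1 FN1, the fibronectin bound by ITGA5 and ITGA4, fell by 1.82 ± 0.16 at 2 h and 1.89 ± 0.16 at 6 h on the log2 scale.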

How the data were processed

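Polyadenylated RNA of 24 libraries (8 conditions, 3 replicates each) was sequenced in paired-end reads. The authors deposited whole-number read counts per gene in 2 tables, and the submitters' processing notes name FastQC, fastp, STAR, featureCounts and the build hg38. Their versions, the annotation and the strand setting are not given in the sources used here. No deposited column was left unmapped.

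Members were matched by symbol in both tables. Counts cover all members, but the values of 1 member are not reported here. Each table was scaled by TMM, filtered with filterByExpr (minimum count 10, minimum total 15) and fitted over all its libraries with edgeR 4.0.16 (robust quasi-likelihood test, R 4.3.3), which left 15882 and 17020 genes, residual degrees of freedom of 4 and 12, and common dispersions of 0.0129 and 0.00502. P-values were adjusted by Benjamini-Hochberg over each whole table. DESeq2 1.42.0 served as an alternative. Other alternatives were library totals, DESeq2 size factors, no filter, a replicate block, fits of only the groups compared, the adjusted p alone and leaving out each of the 24 libraries. The fit was tested on simulated data. Levels per kb used the Ensembl canonical transcript of the GENCODE annotation, or the longest transcript where none was marked. Gene positions, overlaps and start-site windows were taken from RefSeq (GRCh38.p14). Total counts of 18699929 to 63882077 per library set the precision, and a floor of 3 counts per library was used for bounds, which cover counting error only.

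Any member could be named. Values in every library were given first for up to 5 called members per comparison and direction with the largest changes and a mean of at least 1 CPM in 1 condition, and for the highest members per kb of a role, in CPM or as mean ± SD per kb. Of each partner list the 2 called genes with the largest changes per comparison could be named. Other values, and the ratios of partner chains, were chosen after they were seen. The members and lists were chosen with earlier results of these data known. No library pair within a condition agreed within sampling noise (chi-square per degree of freedom 2.10 to 52.5). Replicate numbers did not pair the samples, since in 0 of 16 pairs of groups did every same-numbered pair correlate above 0.1 (r -0.185 to 0.160).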

Additional observations from a re-analysis of the deposited data

Results flagged for a closer look

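The response to PDS differed between the B lines for 10 members at 2 h and 11 at 6 h in edgeR's interaction test, where a positive log2 value is a more positive response in PEO4. At 2 h ITGA4 (2.21), ITGB6 (2.49), LAMA4 (2.15), ITGA9 (1.93), ITGA7 (1.69), LAMA3 (1.05) and LAMB1 (1.02) were positive. Negative at 2 h were ITGA1 (-1.29), LAMA1 (-1.43) and ITGAM (-4.13). At 6 h ITGA4 (2.14), ITGB6 (1.90), ITGA10 (1.88), LAMA3 (1.69), ITGA9 (1.64), LAMB1 (1.32), ITGA5 (1.30) and LAMB3 (1.15) were positive. Negative at 6 h were ITGA1 (-1.43), ITGB4 (-1.36) and ITGAM (-5.17), the ITGAM values resting on at most 4 counts in any PEO4 library and being no bound. At 2 h the LAMA3, LAMB1 and ITGAM calls rested on single libraries, being 0.76 and 0.84 for LAMA3 and LAMB1 without untreated PEO4 B replicate 3, and -3.59 (edgeR adjusted p = 0.0559) for ITGAM without untreated PEO4 B replicate 1. The ITGB6 value was 3.48 at 2 h and 2.89 at 6 h without untreated PEO4 B replicate 2.

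In ITGA3 and ITGAV the libraries of the A pair and of the untreated B pair separated in opposite directions. The log2 changes (PEO4 over PEO1) were 0.97 and 0.45 in A and -0.20 and -0.27 in B. The difference between the pairs was not tested, since the tables were scaled separately.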

How the results depend on the processing

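Over 1312 alternative values for 101 called member differences, none turned direction and 83 differences kept their call throughout. Calls lost numbered 3 under library totals, 1 under DESeq2 size factors, 0 without the filter, 1 under the DESeq2 Wald test and 3 when only the groups compared were fitted. With the adjusted p alone and no 2-fold limit, the members called rose to 23 of 33 in A and 26 in untreated B, beside 61.6% and 68.6% of all genes by that rule. In PEO1 they were 17 and 18 at 2 and 6 h, beside 52.6% and 53%, and in edgeR 0 between those times (2 at an unadjusted p below 0.05), beside 6.94%. In PEO4 they were 25 and 30 at 2 and 6 h, beside 65.3% and 69.8%, and 23 from 2 to 6 h, beside 60.1%. For the differences in response they were 18 and 21 at 2 and 6 h, beside 37.3% and 47.4%. Leaving out 1 library gave 17 to 20 members called in A, 14 to 18 in untreated B, 5 to 6 and 4 to 6 in PEO1 at 2 and 6 h, 0 to 0 between those times, 12 to 16 and 18 to 20 in PEO4, 3 to 6 between its times, and 7 to 12 and 11 to 13 for the differences in response.

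Fitted with a replicate block, the counts were 19 and 16 for the lines, 5, 4 and 0 for PEO1, 13, 19 and 4 for PEO4 and 9 and 12 for the differences in response. The block ended 1 call, LAMA3 in the 2 h difference (1.07, edgeR adjusted p = 0.0552), which was also lost on leaving out any 1 of 9 libraries, the lowest value being 0.76 without untreated PEO4 B replicate 3. LAMB1 in the same comparison was under the 2-fold limit on leaving out any 1 of 6 libraries (0.84 to 1.0). The ITGB6 2 h difference ran from 2.07 to 3.48. Low counts limit ITGAM, ITGAX, ITGB3 and LAMC3, whose fitted changes are not bounds, and the untreated B libraries were the shallowest. The causes of these changes were not tested.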
